A study of Mus musculus with 4 samples.

Results

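The 50 genes described here encode the machinery that copies DNA in S phase and the factors that start it. They were taken by name from a list of replication and S phase genes, and kept where a gene reached a CPM (counts scaled to library size) of 0.5 in at least 2 libraries. All 50 were among the 55341 genes in the files, all 50 were kept, and all 50 were among the 16617 genes with enough counts to be tested. RNA-seq was done on cerebellar tissue of mice at postnatal day 14 (P14), with 2 WT and 2 Kdm6b-cKO libraries, each from an individual mouse, and WT and cKO tissue came from littermates. Both genotypes carried floxed Kdm6b alleles (Kdm6b fl/fl), with loxP sites around the exons for the catalytic domain of this H3K27 demethylase. The cKO mice also carried Atoh1-Cre, a Cre recombinase active in granule neuron precursors (GNPs), so the other cell types of the tissue were not the target of the deletion. The comparison asked how loss of KDM6B in the granule neuron lineage altered the RNA of the tissue while cerebellar granule neurons (CGNs) matured.

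Replication starts from origins that are licensed in G1, when the origin recognition complex with CDC6 and CDT1 loads the MCM2-7 helicase. CDC45 and the GINS complex then turn the helicase on, primase and DNA polymerases copy the strands behind it, and the sliding clamp PCNA holds the polymerases on DNA. E2F transcription factors bind the promoters of many of these genes and set their wave of transcription at the entry into S phase. In the postnatal cerebellum the cells best known for dividing are the GNPs of the external granule layer. Glial precursors divide as well, while CGNs and Purkinje cells do not. The authors describe GNP division as having ended by P14, the age sampled here.

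The promoters of these genes are shown first because E2F factors are among the genes described, and because the share of promoters with an E2F form was measured against all tested genes. Promoter sequences of 250 bases before to 50 bases after the transcription start were taken from RefSeq (GRCm38.p6), which gave 49 starts for 42 of the 50 genes. The genes with no entry were Mcm4, Gins1, Gins2, Gins4, Rfc2, Prim2, Pole and Ccne2. Both strands were searched for 4 forms of the E2F consensus, TTTCCCGC, TTTCGCGC, TTTGCCGC and TTTGGCGC, which can overlap each other when they lie on opposite strands. The stretches below lie before the RefSeq start, hold no annotated exon in GENCODE M21, and run 5′ to 3′ on the strand of the gene with the E2F form in capitals. They show members of the licensing, helicase, polymerase and regulator groups. Their fitted log2 differences between genotypes ran from -0.06 (Pola1) to 0.96 (Cdc6), and none passed the test. Cdc6 passed the filter on low counts only through the cKO libraries.
Cdc6, chr11:98907993-98908040, plus strand: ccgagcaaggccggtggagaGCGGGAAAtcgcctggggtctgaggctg
Mcm5, chr8:75109336-75109387, plus strand: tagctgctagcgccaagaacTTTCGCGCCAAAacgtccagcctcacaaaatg
Mcm6, chr1:128359725-128359772, minus strand: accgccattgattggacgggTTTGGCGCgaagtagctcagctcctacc
Pola1, chrX:93632266-93632313, minus strand: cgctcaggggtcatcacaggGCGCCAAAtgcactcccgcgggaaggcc
E2f3, chr13:29986064-29986094, minus strand: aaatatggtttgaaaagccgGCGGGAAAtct
E2f7, chr10:110745221-110745268, plus strand: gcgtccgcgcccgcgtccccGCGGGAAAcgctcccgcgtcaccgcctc
In Mcm5 the capitals cover 2 overlapping forms on opposite strands. The Cdc6 stretch lies inside the Cdc6 gene as GENCODE draws it, between exons, and the other stretches lie in no annotated gene.

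An E2F form was found in 17 of the 42 promoters (40.5%, exact 95% interval 25.6 to 56.7%), against 509 of the 11498 tested genes with a promoter sequence (4.43%). The genes were Orc1, Cdc6, Cdt1, Mcm3, Mcm5, Mcm6, Mcm7, Gins3, Rfc3, Pola1, Pold1, Pold3, Pole2, Lig1, E2f2, E2f3 and E2f7. A list of other replication genes, such as further origin, checkpoint and fork genes, held a form in 16 of 40 promoters (40%). Genes of mitosis held one in 2 of 35 (5.71%). The CHR element TTTGAA, which is known from the promoters of genes expressed in G2 and mitosis, had the opposite distribution, with 8 of 42 replication promoters (19%) against 26 of 35 mitosis promoters (74.3%) and 14.3% of tested genes. The CCAAT box (CCAAT) was found in 26 of 42 replication promoters (61.9%), in 71.4% of mitosis promoters and in 42.7% of tested genes. The median GC content was 62.17% for the replication promoters and 60.67% for those of all tested genes, with 25 and 20 CpG dinucleotides. A match describes the letters of the sequence, and binding was not measured here.

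**Figure D1:**
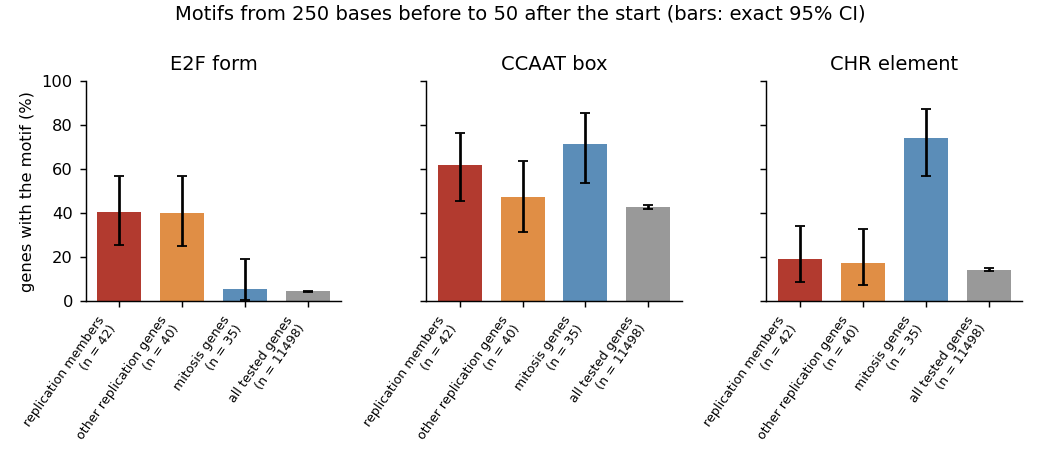
Share of genes (%) with each motif from 250 bases before to 50 bases after a RefSeq start, for the replication genes, other replication genes, mitosis genes and all tested genes, with exact 95% intervals as error bars. The E2F form stood at 40.5% and 40% in the replication lists against 5.71% in mitosis genes, while the CHR element stood at 74.3% in mitosis genes.

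The libraries held 8811849 to 9892363 counts in genes. Kdm6b itself was at 154 and 154 CPM in WT 1 and WT 2 and at 127 and 119 CPM in cKO 1 and cKO 2, and fell by 0.33 on the log2 scale (SE 0.076, edgeR quasi-likelihood test, adjusted p = 0.0162). With any 1 library left out the log2 difference was -0.37 to -0.28, and it did not pass in edgeR (adjusted p from 0.111 to 0.493). Its counts cover all exons, not only the deleted ones, and the tissue holds cells that the Cre driver does not reach. Markers of the cerebellum were present, with the granule lineage factor Zic1 at 1298 to 1483 CPM and the Purkinje cell gene Pcp2 at 315 to 336 CPM. Xist and the Y-linked genes had the male pattern in WT 1 and the female pattern elsewhere, which leaves sex and genotype partly confounded. Markers of the choroid plexus, a tissue that lies against the cerebellum, summed to 698 CPM in cKO 1 and to between 35.4 and 43.0 CPM in the other libraries. The defining marker Ttr was at 609 CPM in cKO 1 and at 13.9 CPM in cKO 2.

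The replication genes were of low to moderate abundance at P14. With 2 libraries per group, a gene that did not pass the test is not shown to be unchanged. Of the 50, 1 rose in cKO (E2f1), 0 fell, and 49 did not pass the test, against 1.87% of all tested genes called higher and 2.17% called lower (edgeR, adjusted p under 0.05). At an unadjusted p under 0.05 the edgeR test placed 10 of the 50 higher and 0 lower, against 7.81% and 8.5% of all tested genes. The same counts were 6 and 0 in DESeq2, against 4.13% and 4.53% of all tested genes, and 10 and 0 in limma-voom, against 7.7% and 8.61%. DESeq2 gave no adjusted p for 25 of the 50. With library size alone in place of TMM, 434 of all genes were called higher and 292 lower, against 310 and 361 with TMM. Without WT 1, edgeR called 1 replication gene higher, without WT 2 it called 2 (Mcm6 and E2f1), and without cKO 1 or without cKO 2 it called 0 of all tested genes (17292 and 17363) in either direction. At an unadjusted p under 0.05 it then placed 10 replication genes higher and 0 lower without cKO 1, against 6.41% and 6.98% of all tested genes. Without cKO 2 it placed 3 higher and 2 lower, against 4.91% and 4.99%. DESeq2 called 97 genes higher and 133 lower without cKO 1, where 16 of the 50 replication genes had an adjusted p and 0 of those passed. Without cKO 2 it called 38 and 41, and 0 of the 50 replication genes passed. The fitted difference was above 0 for 39 of the 50 and ran from -0.39 (Pole2) to 1.05 (E2f2). Its median was 0.16 on the log2 scale, or 0.15 without Cdc6, against 0.0036 over all tested genes. The median was 0.38 without cKO 1 and 0.084 without cKO 2. For 41 of the 50 genes the difference moved by over 1.5 times in some fit that left out 1 library, and 22 of these turned sign. The other genes were Orc1, Mcm5, Mcm10, Rpa3, Lig1, Tk1, E2f1, E2f2 and E2f3. In tissue of mixed cells, a change in the number of cells of a type and a change in RNA per cell cannot be told apart.

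Both cKO libraries stood above both WT libraries for 20 of the 50 genes (40%), against 23.2% of all tested genes. Among the 20 is Cdc6, which passed the filter on low counts only through the cKO libraries, and without it the count was 19 of 49 (38.8%). Both stood below for 2 genes, Rrm1 and Ccne1, against 23.2%. WT 1 alone had the male pattern, and without it cKO stood above the remaining WT library for 24 of the 50 genes, against 36.1% of tested genes, and the median log2 difference was 0.14. Where 4 values are listed from here on, the order is WT 1, WT 2, cKO 1, cKO 2. Where the groups of a gene are said not to overlap, cKO stood above, as in 23.2% of all tested genes. The difference was not spread evenly over the cKO libraries. Each gene's ratio to the WT mean, on the scale of log2(CPM + 0.5), had a median of 0.078 in cKO 1 and of 0.35 in cKO 2. Library cKO 2 stood above both WT libraries for 39 of the 50 genes and cKO 1 for 24, against 38.5% and 36.9% of tested genes. Library cKO 2 also stood above cKO 1 for 39 of the 50, where the share over all tested genes was 50.1%. The WT libraries were closer, with WT 2 above WT 1 for 28 of the 50. Summed over the 50 genes the level was 753 and 769 CPM in WT 1 and WT 2 and 790 and 881 CPM in cKO 1 and cKO 2.

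**Figure D2:**
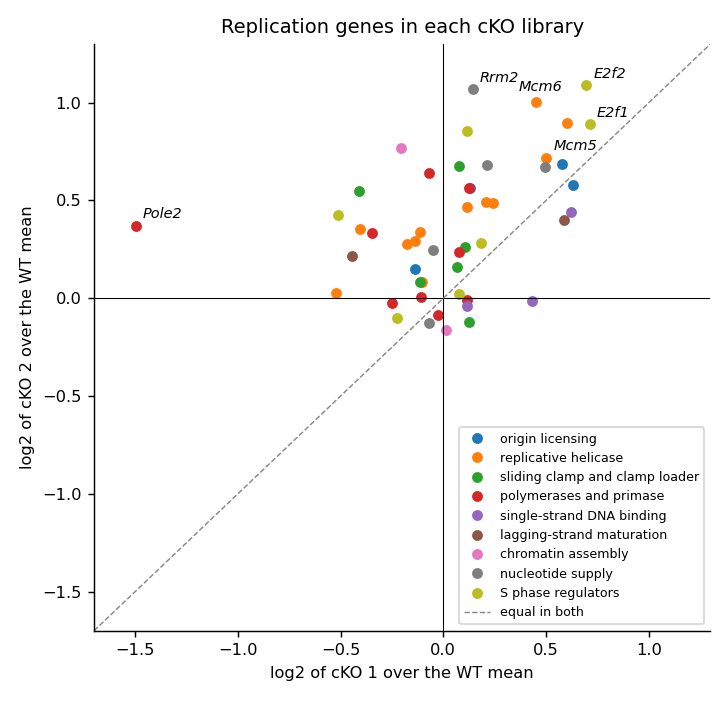
Log2 of cKO 1 (x axis) and of cKO 2 (y axis) over the WT mean, with 0.5 CPM added to each level, for the 50 replication genes coloured by role, with the dashed line at equal ratios. Most points lie above the line, 39 of the 50, where cKO 2 stands above cKO 1 for 50.1% of all tested genes. E2f1, E2f2, Mcm5 and Mcm6 are high on both axes, while Rrm2 is high in cKO 2 and near 0 in cKO 1.

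Transcription factors and cyclins that govern S phase held the gene that rose. E2f1 (ENSMUSG00000027490, GRCm38 chr2:154559407-154569892, minus strand) encodes an activator of replication genes. It was at 10.1 and 12 CPM in WT 1 and WT 2 and at 18.4 and 20.9 CPM in cKO 1 and cKO 2, from 94, 111, 183 and 187 counts. The groups did not overlap, and the difference of 0.83 on the log2 scale (SE 0.17, n = 2 per group, edgeR adjusted p = 0.0063) was present in each cKO library, at 0.71 in cKO 1 and 0.89 in cKO 2 over the WT mean. The call held in DESeq2 (adjusted p = 0.0284) and limma-voom (0.00881). It did not hold in edgeR without cKO 1 (0.288) or without cKO 2 (0.493), and ranged from 0.000412 to 0.493 over the edgeR settings run. In DESeq2 it did not pass without WT 2 (0.636) or without cKO 2, and without WT 1 or cKO 1 that tool gave no adjusted p. Over all these fits the log2 difference stayed between 0.71 and 0.96. With no filter on low counts the edgeR adjusted p was 0.0617.

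The other activators were higher in both cKO libraries without passing the test. E2f2 was at 1.94, 2.16, 3.63 and 4.93 CPM (log2 difference 1.05, SE 0.36, adjusted p = 0.121). E2f3 was at 40.0, 36.2, 43.3 and 46.4 CPM (0.23, SE 0.11, adjusted p = 0.285). E2f7 and E2f8 encode repressors that turn S phase genes down again. E2f7 was at 4.64, 5.29, 3.33 and 6.83 CPM, so that cKO 1 lay below and cKO 2 above both WT libraries. E2f8 was at 0.539, 1.62, 1.21 and 2.35 CPM, and the groups overlapped. Ccne1 and Ccne2 encode the E cyclins that drive CDK2 at the start of S phase. Ccne1 was at 7.66, 8.75, 6.96 and 7.62 CPM and Ccne2 at 21.6, 21.7, 22.9 and 22.0 CPM, so that neither differed by more than its standard error (log2 differences -0.17 ± 0.23 and 0.05 ± 0.14). Their partner Cdk2, from the list of other replication genes, rose from 3.34 and 3.46 CPM in WT to 9.27 and 6.72 CPM in cKO (1.24, SE 0.28, adjusted p = 0.0135).

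Origin licensing genes had a median difference of 0.59 over 4 genes, or 0.38 over 3 without Cdc6, and none passed the test. Orc1, the cell-cycle-regulated subunit of the origin recognition complex, was at 1.08 and 1.3 CPM in WT against 2.12 and 2.02 CPM in cKO (0.79, SE 0.47, adjusted p = 0.433). Cdc6, the loader of the helicase, had 8, 4, 12 and 12 counts, or 0.863, 0.432, 1.21 and 1.34 CPM. Since it passed the filter only through the cKO libraries, its values are given as a description. Cdt1, its partner in loading, was at 6.80, 7.13, 7.66 and 10.5 CPM (0.38, SE 0.23, adjusted p = 0.459), with a difference from 0.14 without cKO 2 to 0.60 without cKO 1. In Orc1 and Cdt1 the groups did not overlap, on 10 to 94 counts per library. Orc6, another subunit, was at 20.4 and 20.5 CPM in WT with cKO 1 below and cKO 2 above them, and its difference was 0.01 ± 0.15.

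For the MCM2-7 helicase and its partners, 0 of the 12 helicase genes passed the test, while Mcm5 passed with library size alone (adjusted p = 0.044). At an unadjusted p under 0.05, 4 of them were higher (Mcm5, Mcm6, Mcm7 and Mcm10), and 0 were lower. The shares over all tested genes were 7.81% higher and 8.5% lower. Mcm5 was at 8.95 and 10.3 CPM in WT and 13.8 and 16.1 CPM in cKO (0.64, SE 0.19, adjusted p = 0.0586). Mcm6 was at 5.29 and 9.18 CPM in WT and 10.1 and 15.0 CPM in cKO (0.79, SE 0.25, adjusted p = 0.0873), and Mcm7 at 27.9 and 25.2 CPM against 31.4 and 37.4 CPM (0.37, SE 0.13, adjusted p = 0.118). In each of these genes both cKO libraries stood above both WT libraries, and in Mcm6 the WT libraries were themselves far apart. The Mcm6 difference was 0.44 without WT 1, 1.24 without WT 2, 1.05 without cKO 1 and 0.48 without cKO 2, and it passed without WT 2 (adjusted p = 0.00162). Mcm2 was at 10.2, 8.10, 10.7 and 13.1 CPM (0.37, SE 0.21, adjusted p = 0.398). Mcm3 was at 7.01, 7.23, 6.25 and 8.74 CPM (0.07, SE 0.24), and Mcm4 at 15.9, 18.6, 15.6 and 21.2 CPM (0.09, SE 0.17). In Mcm3 and Mcm4 cKO 1 was the lowest and cKO 2 the highest of the 4 libraries. Whether the subunits differed from each other in their response was not tested.

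Mcm10, a factor needed to start the fork, was at 2.27 and 2.7 CPM in WT and 4.03 and 5.04 CPM in cKO (0.86, SE 0.34, adjusted p = 0.193). Cdc45 and the GINS genes complete the active helicase. Cdc45 was at 3.02, 4.64, 2.52 and 3.92 CPM, with overlapping groups. The 4 GINS genes had log2 differences from -0.01 (Gins2) to 0.41 (Gins1), with 0.01 for Gins3 and 0.13 for Gins4, each within its standard error. Library cKO 2 stood above cKO 1 in 12 of the 12 helicase genes, where the share over all tested genes was 50.1%.

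Of the 6 clamp and clamp loader genes 0 passed the test in either direction. Pcna, the sliding clamp, was at 33.9 and 33.4 CPM in WT against 35.3 and 37.6 CPM in cKO (0.12, SE 0.11, adjusted p = 0.686). The groups did not overlap, and the difference was close to its standard error. The 5 subunits of the clamp loader had differences from -0.01 (Rfc5) to 0.43 (Rfc3), with 0.01 for Rfc2 and 0.15 for Rfc4. The Rfc3 difference was 0.084 without cKO 2 and 0.73 without cKO 1. Rfc1, the large subunit, had the smallest p of the group (0.19, SE 0.12, adjusted p = 0.46). Polymerase and primase genes had a median difference of 0.03 over 9 genes, and 0 passed in either direction. Pola2, a subunit of DNA polymerase alpha, was at 13.5 and 12.5 CPM in WT against 14.2 and 19.5 CPM in cKO (0.37, SE 0.18, adjusted p = 0.32), with a difference of 0.13 without cKO 2 and 0.58 without cKO 1. The leading-strand polymerase gene Pole was at 6.15, 5.4, 4.44 and 7.39 CPM, and its partner Pole2 at 1.83, 2.27, 0.403 and 2.80 CPM, from 17, 21, 4 and 25 counts. The low Pole2 level was that of cKO 1, and the groups overlapped. Pola1, Prim1, Prim2, Pold1, Pold2 and Pold3, which encode the catalytic subunit of polymerase alpha, the primase pair and subunits of polymerase delta, had differences from -0.14 (Pold3) to 0.34 (Prim1).

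**Figure D3:**
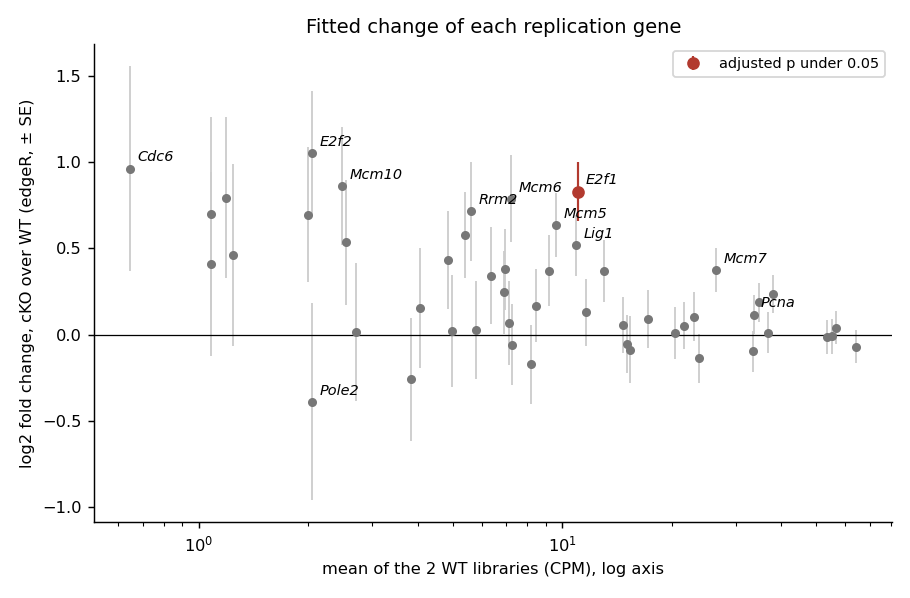
Fitted log2 difference of cKO over WT with its standard error (y axis) against the mean CPM of the 2 WT libraries (x axis, log scale) for each of the 50 replication genes, with the gene past the threshold in red. E2f1 is the red point at 0.83, and genes above 50 CPM lie near 0, from -0.07 (Chaf1a) to 0.04 (Rpa1), with short error bars. Among them, Gins2 and Chaf1a share 67.3% and 52.5% of their exon bases with another gene, so their levels are uncertain.

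Of the genes that bind single-stranded DNA or finish the lagging strand, Rpa3 and Lig1 were higher at an unadjusted p under 0.05, and none passed after adjustment. At that level 7.81% of all tested genes were higher. Rpa3, the smallest subunit of replication protein A, was at 6.04 and 4.75 CPM in WT and 8.57 and 7.51 CPM in cKO (0.58, SE 0.25, adjusted p = 0.246). Rpa1 and Rpa2, its larger partners, differed by 0.04 ± 0.10 and 0.24 ± 0.24. In the 3 RPA genes cKO 1 was above cKO 2, the reverse of the helicase genes. Lig1, the ligase that seals Okazaki fragments, was at 10.9 and 10.9 CPM in WT and 16.6 and 14.6 CPM in cKO (0.52, SE 0.18, adjusted p = 0.114). In Rpa3 and Lig1 the groups did not overlap. Fen1, the flap nuclease that acts before it, was at 15.5, 15.2, 11.2 and 17.9 CPM, so that cKO 1 lay below and cKO 2 above both WT libraries. Chaf1a and Chaf1b encode subunits of the chromatin assembly factor that follows the fork, and differed by -0.07 ± 0.10 and 0.46 ± 0.53.

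Enzymes that supply nucleotides had a median difference of 0.53 over 5 genes, with 0.14 in cKO 1 and 0.67 in cKO 2, and none passed the test. Rrm2, the S phase subunit of ribonucleotide reductase, was at 4.96 and 6.26 CPM in WT against 6.25 and 12.3 CPM in cKO (0.71, SE 0.29, adjusted p = 0.199). Library cKO 1 lay at the level of WT 2, and cKO 2 was the highest. The difference was 0.16 without cKO 2 and 1.13 without cKO 1. Rrm1, the large subunit, which is more stable over the cell cycle, was at 32.4, 34.4, 31.9 and 30.6 CPM (-0.10, SE 0.12). Tyms, thymidylate synthase, was at 2.7, 2.38, 3.02 and 4.37 CPM (0.53, SE 0.36, adjusted p = 0.511) and Tk1, thymidine kinase, at 2.27, 1.73, 3.02 and 3.47 CPM (0.70, SE 0.39, adjusted p = 0.405). In these 2 genes the groups did not overlap, on 16 to 39 counts per library. Both cKO libraries stood above both WT libraries in 23.2% of all tested genes. Dut, the dUTPase that keeps uracil out of DNA, differed by 0.10 ± 0.14.

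**Figure D4:**
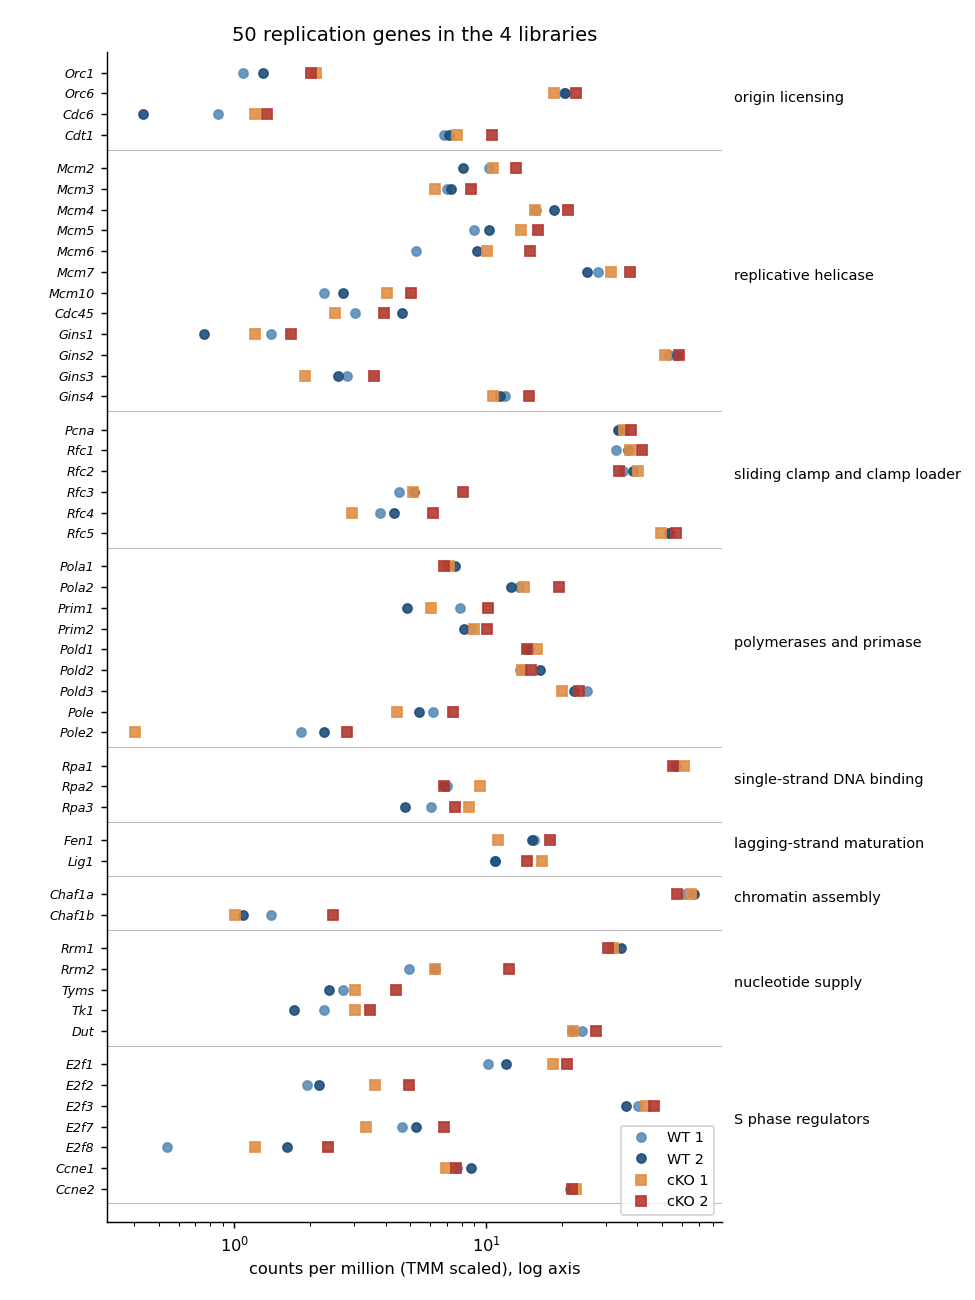
Level of each of the 50 replication genes in the 4 libraries (CPM on a log axis), grouped by role, with circles for WT 1 and WT 2 and squares for cKO 1 and cKO 2. Squares stand to the right of both circles for 20 genes (40%, against 23.2% of all tested genes), E2f1, E2f2, Mcm5 and Mcm10 among them. Cdc6, which passed the filter on low counts only through the cKO libraries, is also among the 20. The cKO 1 square of Pole2 stands far to the left at 0.403 CPM.

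Levels between genes were compared per kilobase of exon (RPKM, mean of WT). Pcna (14), Gins2 (13.5), Rfc5 (11.5), Rpa1 (10.2) and Dut (9.54) were highest, and Cdc6 (0.124), E2f8 (0.198) and Chaf1b (0.265) lowest. The MCM2-7 subunits act in equal numbers in 1 complex, and their levels ran from 1.32 (Mcm2) to 6.0 (Mcm7). This order depends on the length used, which joins all annotated exons of a gene (6956 bases in Mcm2, 3752 in Mcm3). In CPM the WT mean of Mcm2 (9.17) was above those of Mcm3 (7.12) and Mcm6 (7.23). The GINS subunits ran from 0.712 (Gins1) to 13.5 (Gins2). Of the exon bases of Gins2, 67.3% are also exon of Gse1, a gene at 124 to 140 CPM, so the Gins2 level is uncertain. The same holds for Fen1 (84.2% shared with Tmem258 and Gm10143) and Chaf1a (52.5% shared with Ubxn6), because whether the counting used strand was not given in the sources read here.

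Members with and without an E2F form are given side by side, and their difference was not tested. The median log2 difference was 0.37 over the 17 members with a form and 0.19 over the 25 without, and 0.03 and 0.0044 over all tested genes with and without one. E2f1, the only replication gene called higher in the edgeR test with TMM, was among the 25 without a form. Only exact matches to the listed forms were counted, so E2F sites of other sequence or outside the promoter sequences were not. Mcm5 and Mcm6, whose stretches are printed above, had differences of 0.64 and 0.79. The 17 include Cdc6 (0.96), which passed the filter on low counts only through the cKO libraries. Its value and the median of 0.37 are therefore descriptions, and a median of this group without Cdc6 was not computed. Pola1 and E2f7, also printed above, had differences of -0.06 and 0.02.

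Other genes of the cell cycle and markers of the tissue were read beside the replication genes. Over all tested genes, 1.87% were called higher and 2.17% lower. Of the 50 tested genes in the list of other replication genes, 2 rose and 0 fell, with a median of 0.15. They were Cdk2 and Uhrf1, a factor that maintains DNA methylation at the fork. Uhrf1 was at 3.88 and 4.32 CPM in WT and 6.15 and 12.3 CPM in cKO (1.16, SE 0.30, adjusted p = 0.034). Of 39 tested mitosis genes 6 rose and 0 fell (Cenpf, Top2a, Ccnb1, Cdc20, Mki67 and Plk1), with a median of 0.43 that was 0.11 in cKO 1 and 0.68 in cKO 2. The kinetochore gene Cenpf was at 5.07 and 7.56 CPM in WT and 12.5 and 20.8 CPM in cKO (1.39, SE 0.25, adjusted p = 0.00167). Top2a, which untangles DNA before division, was at 13.7, 14.9, 21.5 and 40.3 CPM (1.10, SE 0.21, adjusted p = 0.00308). Cyclin B1 (Ccnb1) was at 2.59, 4.75, 6.45 and 10.6 CPM (1.21, SE 0.31, adjusted p = 0.0323). As in the replication genes, cKO 2 was above cKO 1 in these 3 genes, and whether the lists differed from each other was not tested.

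Markers of the granule lineage were read in the same libraries. Of 11 tested GNP markers 4 rose and 0 fell, Barhl1, Sfrp1, Ccnd2 and Rassf4. The list was mixed, with 6 of the 11 above 0, a median of 0.02 and a lowest value of -0.59, and it summed to 526, 556, 600 and 675 CPM. Atoh1, the defining gene of GNPs, had too few counts to be tested. Of 12 newborn granule neuron markers 10 rose and 0 fell, with sums of 2279, 2429, 2863 and 3409 CPM. Those of smallest p were Sox11, Cd24a and Tubb2b, with log2 differences of 1.13, 1.22 and 0.74. Of 10 mature granule neuron markers 8 fell and 0 rose, with sums of 6330, 6502, 5282 and 4659 CPM. Grm4, Gabra6 and Etv1 fell by 0.61, 0.44 and 0.43. Of the 8 oligodendrocyte precursor markers, another dividing population, Gpr17 rose and Olig1 fell, with sums of 462, 451, 448 and 512 CPM. Of 8 astroglial markers Fabp7 rose and Slc1a3 and Gdf10 fell, with sums from 2916 to 3206 CPM. Of 7 Purkinje cell markers Slc1a6 rose and Ppp1r17 fell, with sums from 5086 to 5771 CPM. In microglial (130, 129, 118 and 131 CPM), endothelial and mural (391, 401, 398 and 417 CPM), red blood cell (103, 102, 103 and 104 CPM) and GABAergic interneuron precursor lists (559, 544, 514 and 495 CPM), 0 genes passed the edgeR test, and the smallest p of the last 3 lists were those of Cspg4, Hbb-bt and Gad1 (adjusted p = 0.302, 0.396 and 0.327). The choroid plexus list was high in cKO 1, the library in which most replication genes were the lower of the cKO pair. In that list 3 of 5 tested markers were called higher (Ttr, Kl and Car12). Car12 had 9, 3, 66 and 10 counts. It passed the filter on low counts only through the cKO libraries, so its call is a description. Each cell type's part in the replication gene values was not tested.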

How the data were processed

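RNA-seq of P14 cerebellum was analysed in 2 WT and 2 Kdm6b-cKO libraries. Sample titles gave the group and the replicate number. Where the description of a second replicate carried the number of the first, the title was used. Reads had been trimmed (Trimmomatic 0.38), aligned to mm10 (STAR 2.7.2b) and counted over exons (HTSeq) by the authors. The deposited tables hold raw counts for each gene, and 59.5% to 61.0% of entries in each library named no gene and were left out.

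Genes were filtered with filterByExpr (minimum count 10), scaled by TMM and tested with the quasi-likelihood test of edgeR 4.0.16 in R 4.3.3 (two-sided, Benjamini-Hochberg over 16617 genes, threshold 0.05). CPM values are TMM scaled, and RPKM divides them by the joined length of all exons of a gene in GENCODE M21. The tools were run on simulated counts in which the planted changes were larger than most differences of the replication genes. Recovery of smaller changes was not tested. DESeq2 1.42.0, limma-voom (limma 3.58.1), other scalings and filters, a replicate block, a fit without X and Y genes, and fits without each library were alternatives. Depth was 8811849 to 9892363 counts, and the biological coefficient of variation was 7.33%. Replicate libraries were not duplicates, since their counts differed beyond sampling noise (chi-square over degrees of freedom of 3.51 in WT, 3.82 in cKO). Over the replication genes alone, chi-square per gene was 1.13 between the WT libraries and 4.51 between the cKO libraries. With 2 mice per group, p-values rest on few animals, and confidence intervals of shares cover counting error only.

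The members, gene lists and tests were chosen with earlier results of these data known. All 50 members are named; per-library values are given for the called gene and the main components of each role, and other lists give up to 3 called genes of smallest p, or 1. A gene that this rule takes is not reported here.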

Additional observations from a re-analysis of the deposited data

How the results depend on the processing

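With 2 libraries per group the count of replication genes past the threshold was small and moved with the processing. It was 1 (E2f1) in the edgeR test with TMM described above, 2 with library size alone (Mcm5 and E2f1), and 0 with no filter on low counts. With the replicate block it was 3 (Mcm5, Mcm6 and E2f1). Same-numbered libraries showed a correlation of 0.043 in their deviations, and with 2 pairs the numbers are not shown to pair the mice. Leaving out 1 library gave 0 to 2 genes higher. The edgeR count was 0 without cKO 1 and 0 without cKO 2, 1 without WT 1 and 2 without WT 2 (Mcm6 and E2f1), where the lone library is assumed to vary like the other group. In every setting run 0 replication genes were lower. Over all genes, 310 were higher and 361 lower in the edgeR test with TMM, and 137 and 183 in DESeq2. The counts were 549 and 581 with the replicate block and 71 and 106 with no filter. They were 434 and 292 with library size alone, and 239 and 407 with upper-quartile scaling.

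The median log2 difference of the 50 genes ranged from 0.084 to 0.383 when a library was left out, with 0.084 without cKO 2 and 0.383 without cKO 1. The count of genes with cKO above WT ran from 24 to 39 of 50 with 1 library left out, with 39 without cKO 1, an alternative added after the data were seen. The share over all tested genes was then 36.1% to 38.5%, against 23.2% with 4 libraries. The cKO 1 median ratio was 0.045 against WT 2 alone, and the cKO 2 median ratio was 0.38 with no pseudocount. The cause was not tested.

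Of the 50 genes 22 turned sign in some setting, and none of these passed the threshold. With library size alone the log2 difference was 0.021 for Gins2 and 0.017 for Rfc5. With upper-quartile scaling the log2 difference was -0.0096 for Orc6, -0.0048 for Gins3 and -0.0083 for Rfc2. In limma-voom the log2 difference was -0.0013 for Orc6, -0.061 for Gins3, -0.027 for Pole and -0.079 for E2f7. With the replicate block the log2 difference was -0.0092 for Gins3 and -0.014 for E2f7. In edgeR and DESeq2 without 1 library it ranged from -0.14 to 0.30 for Mcm4 (-0.018 in between), from -0.12 to 0.13 for Rfc2 (-0.052, -0.056 in between), from -0.58 to 0.46 for E2f7 (-0.07, -0.57 in between), from -0.60 to 0.091 for Cdc45 (0.086, 0.034 in between), from -0.10 to 0.084 for Gins2 (0.045, 0.046, 0.082 in between), from -0.49 to 0.41 for Gins3 (-0.038 in between). The range was from -0.18 to 0.084 for Pold2 (0.083, 0.0074 in between), from -0.38 to 0.36 for Pole (-0.064 in between), from -0.11 to 0.085 for Rfc5 (0.083 in between), from -0.012 to 0.12 for Pold1 (-0.010 in between), from -2.34 to 0.45 for Pole2 (-2.31 in between), from -0.042 to 0.12 for Rpa1 (-0.040 in between), from -0.016 to 0.46 for Rpa2 (-0.014 in between). It was from -0.46 to 0.22 for Fen1, from -0.14 to 0.15 for Orc6, from -0.19 to 0.30 for Mcm3, from -0.12 to 0.35 for Gins4, from -0.47 to 0.61 for Rfc4, from -0.072 to 0.74 for Prim1 (0.73 in between), from -0.16 to 0.018 for Chaf1a (0.017 in between), from -0.30 to 0.99 for Chaf1b (0.98, -0.29 in between), and from -0.050 to 0.25 for Dut (-0.049 in between).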
